A study of Mus musculus with 12 samples.

Results

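The genes described here encode the proteins of the cytosolic ribosome. They were taken by name and annotation, as protein-coding genes whose symbols begin Rpl or Rps followed by a number, with the P stalk genes Rplp0, Rplp1 and Rplp2 and with Rpsa. The rule itself uses no measured value. The rule gave 78 of the 55487 genes in the deposited count table, where 28299 genes had any count at all. They are 29 genes of the small (40S) subunit, 46 of the large (60S) subunit and 3 of the P stalk. Rps19 and Rps16 were left out because they lie in the stretch of chromosome 7 around Rinl that the rule leaves out. Rps4l, Rpl32l and Rpl6l were left out because they are annotated as pseudogenes. Rpl10l had no count in any library and Rpl3l almost none, and the other 76 genes passed the filter on low counts.

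RNA was measured in CD4+ T cells sorted from spleen and peripheral lymph nodes of mice. The 4 groups, of 3 libraries each, were effector cells (CD62L-CD44hi) of Rinl-KO mice, effector cells of WT mice, naive cells (CD62L+CD44lo) of Rinl-KO mice and naive cells of WT mice. Rinl encodes a regulator of RAB5, a small GTPase of early endosomes. What strain and age the mice had, and which KO allele, was not given in the sources used here. In its design the study set KO against WT within each cell state, and the same libraries also set effector against naive cells within each genotype. The labels do not say whether libraries came from separate animals, so p-values measure the spread between these libraries, which may in part be technical.

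Each cytosolic ribosome has a small subunit, which reads the mRNA, and a large subunit, which joins amino acids, and most ribosomal proteins are present in 1 copy in each ribosome. The mRNAs of these proteins are known for a 5' terminal oligopyrimidine (TOP) tract, a C at the first base followed by a run of C and T, through which mTOR signalling and the RNA-binding protein LARP1 control their translation and stability. Naive T cells are small resting cells, and T cell activation is known to increase ribosome production. The effector cells here were sorted directly from the animals and were not restimulated.

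Total counts were 11606251 to 20381010 in KO effector, 12893396 to 16428862 in WT effector, 20072199 to 24320247 in KO naive and 12409965 to 19584111 in WT naive libraries. Rinl had 45.8, 47.5 and 49.4 CPM (counts scaled by library size with TMM factors) in KO effector and 437, 451 and 463 CPM in WT effector libraries, and 32.6, 32.2 and 34.4 CPM in KO naive against 298, 299 and 286 CPM in WT naive libraries, so each library fits its label. The 4 CD4+ T cell markers Cd3e, Cd3d, Cd4 and Trac summed to 2502 to 2606 CPM in KO effector, 2529 to 2552 CPM in WT effector, 2224 to 2291 CPM in KO naive and 2260 to 2336 CPM in WT naive libraries.

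Ribosomal protein genes took a smaller share of all counts in effector than in naive cells. The 78 genes together held 3.87, 3.91 and 4.29% of counts in KO effector libraries (4.03% ± 0.23, SD, n = 3) and 3.90, 4.31 and 3.88% in WT effector libraries (4.03% ± 0.24, n = 3). They held 7.18, 7.002 and 6.84% in KO naive libraries (7.01% ± 0.17, n = 3) and 6.45, 6.61 and 6.80% in WT naive libraries (6.62% ± 0.18, n = 3). No effector library reached the lowest naive library in either genotype. Within the effector cells 1 library of each genotype stood above its mates, library 12 of KO cells with 4.29% and library 5 of WT cells with 4.31%, and these were the shallowest libraries of their groups, with 11606251 and 12893396 counts. The small subunit genes and the large subunit genes, here with the P stalk genes, moved alike, with 1.72% and 2.30% of counts in KO effector, 1.73% and 2.31% in WT effector, 3.01% and 3.99% in KO naive and 2.86% and 3.76% in WT naive cells. In bulk RNA, fewer cells of a type that is rich in these mRNAs and less of the mRNA in each cell cannot be told apart, and a share does not give the amount per cell.

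**Figure D1:**
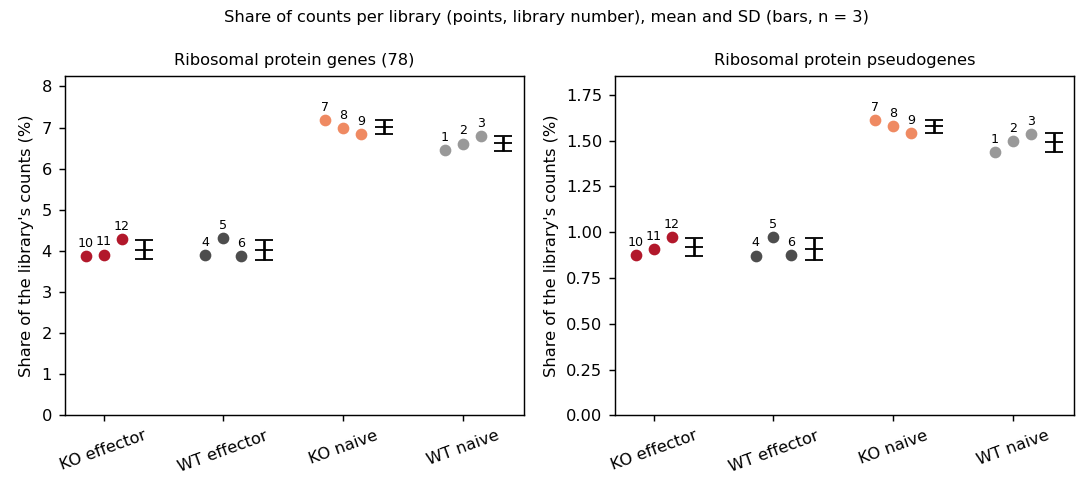
Share of each library's counts (percent, vertical axes) in the 78 ribosomal protein genes (left) and in pseudogenes named after ribosomal protein genes (right), by group, with the library number at each point and the mean ± SD of 3 libraries beside the points. The pseudogenes include some named after genes outside the 78. Effector libraries lie at 3.87 to 4.31% and naive libraries at 6.45 to 7.18% in the left panel, and the pseudogenes show the same order of cell states.

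Levels of different genes can be compared only per length, for which the deposited FPKM (fragments per gene scaled by gene length and library size) were used. The 76 detected genes had a median of 629 FPKM over the 12 libraries, against 0.70 FPKM for all 28299 genes with a count, and 38 of them were among the 100 genes with the highest FPKM. Rplp1, a protein of the stalk that recruits elongation factors to the large subunit, stood highest, with 1882, 2319 and 2252 FPKM in KO effector, 1872, 2235 and 1946 FPKM in WT effector, 3750, 3751 and 3730 FPKM in KO naive and 3505, 4015 and 3983 FPKM in WT naive libraries. Rps27, with a mean of 2602 FPKM, Rps29 with 2074 FPKM, Rps15 with 2020 FPKM and Rpl4 with 1662 FPKM followed, the first 3 in the small subunit and Rpl4 in the large. For these 5 genes every effector library was below every naive library.

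The lowest detected genes were of different kinds. Rpl39l, the relative of Rpl39 known from mouse testis, averaged 0.42 FPKM, with 71 counts over all 12 libraries. Rps10 averaged 4.08 FPKM, Rps27l 22.2 FPKM, Rpl13a 33.9 FPKM and Rpl24 100.2 FPKM. Rps10, Rpl13a and Rpl24 encode core proteins present in every ribosome, so their low values were set against reads assigned elsewhere: 4 pseudogenes named after Rps10 held 59985 counts, against 1076 for Rps10 itself, and the pseudogene named after Rpl13a held 9970 counts, against 8309 for Rpl13a. No pseudogene named after Rpl24 was in the table. Pseudogenes named after a member exist for 59 of the 78 genes, and for 8 of them (Rps10, Rpl38, Rps23, Rpl31, Rpl10a, Rpl21, Rpl13a and Rpl30) they held more counts than the gene. The labels and headers do not say how reads shared between gene and pseudogene were counted, so the absolute level of such a gene is uncertain.

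Of the tissue-restricted relatives, Rpl10l, known from mouse testis, had 0 counts in every library and Rpl3l, known from striated muscle, averaged 0.0027 FPKM. Rps27l, a relative of Rps27 that is a known p53 target, was the only relative among the members with a clear signal, at 23.1, 24.9 and 22.6 FPKM in KO effector, 22.4, 28.7 and 24.3 FPKM in WT effector, 20.5, 21.1 and 19.7 FPKM in KO naive and 20.9, 19.6 and 18.4 FPKM in WT naive libraries.

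Effector cells had lower mRNA levels of almost every ribosomal protein gene than naive cells, in both genotypes. In KO cells 74 of the 76 tested genes fell and none rose, where 26.8% of all tested genes fell and 31.6% rose (edgeR quasi-likelihood test, Benjamini-Hochberg adjusted over 15905 genes, threshold 0.05). In WT cells 74 of 76 fell and 1 rose, where 25.9% of all tested genes fell and 30.2% rose. The median log2 fold change of the members was -0.83 in KO and -0.76 in WT cells, a fold of 0.56 and 0.59, beside medians over the 2458 genes of at least 100 CPM of -0.05 in KO and -0.06 in WT cells. The same 2 genes were outside the falls in both genotypes, Rps27l and Rpl39l. All 28 other small subunit genes, 43 large subunit genes and 3 P stalk genes fell in each genotype, and in each of these 74 genes no effector library of a genotype overlapped a naive library of that genotype (over all tested genes, libraries did not overlap and effector was lower for 29.9% in KO and 29.1% in WT cells).

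**Figure D2:**
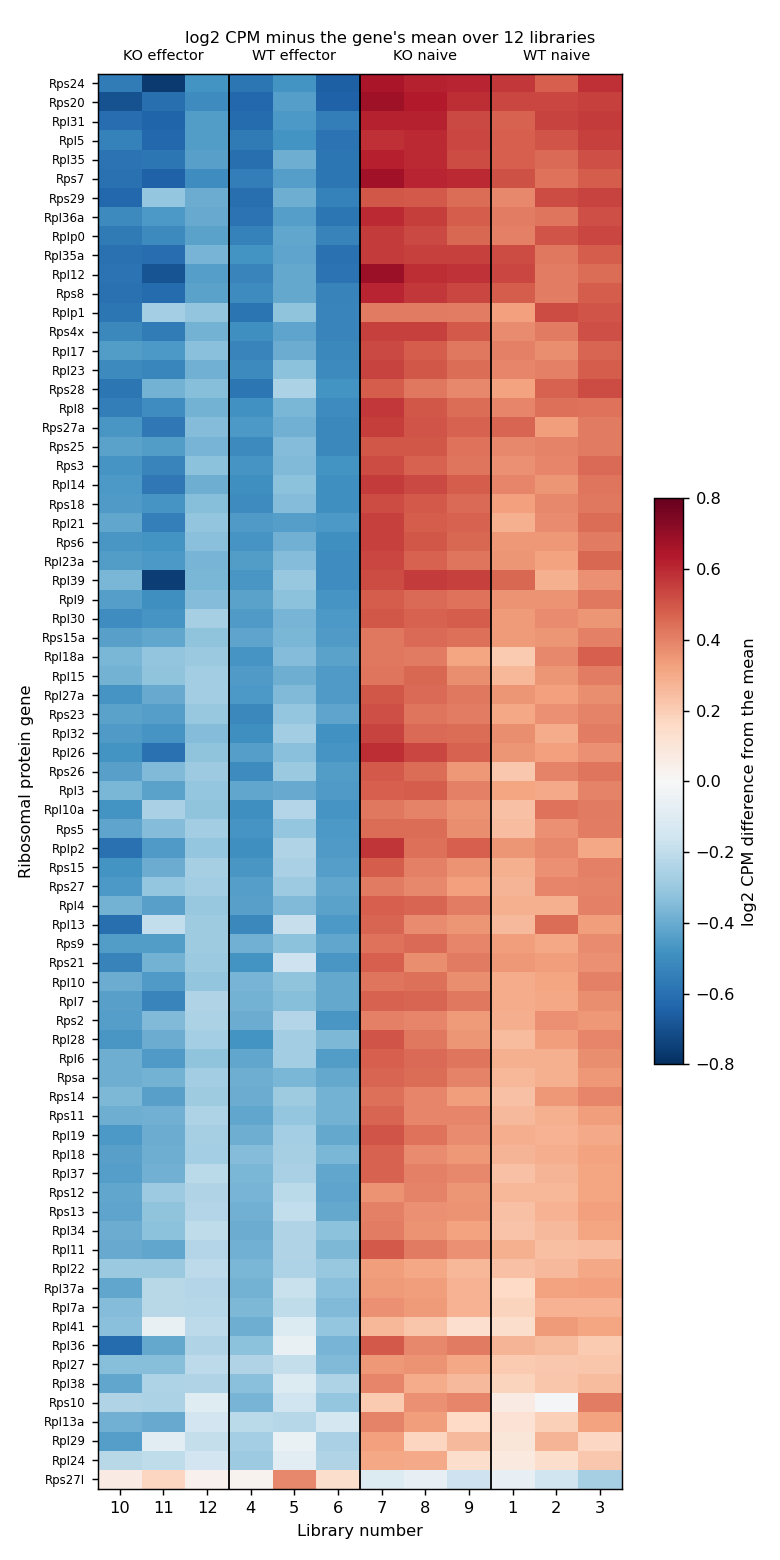
log2 CPM of 74 of the 76 tested ribosomal protein genes (rows, ordered by fold change in WT cells; the barely detected Rpl39l is among those not drawn) minus each gene's mean over 12 libraries (colour, from -0.8 to 0.8), by library (columns, number on the axis). Effector libraries are low (blue) and naive libraries high (red) in each row but the last, Rps27l, which is the other way round, with Rps10 near white in 1 WT naive library. Libraries 5 and 12 are paler than the other effector libraries in most rows.

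Among the largest falls in WT cells were those of Rps24, Rps20, Rps7 and Rps29 of the small subunit and Rpl31, Rpl5 and Rpl35 of the large. Rps24 (ENSMUSG00000025290, chromosome 14, 24487125 to 24496959, GRCm38), mutated in some patients with Diamond-Blackfan anaemia, had 642, 556 and 680 CPM in KO effector and 633, 678 and 600 CPM in WT effector libraries. In the naive cells it was at 1487, 1449 and 1439 CPM in KO naive and 1401, 1314 and 1418 CPM in WT naive libraries. Effector and naive libraries lay far apart, and Rps24 fell by a log2 fold change of -1.22 ± 0.061 in KO cells (SE, edgeR adjusted p = 1.22e-13) and -1.11 ± 0.061 in WT cells (adjusted p = 6.95e-13). Rps20 (chromosome 4, 3831334 to 3835665), a small subunit protein of the head domain, had 450, 479 and 515 CPM in KO effector and 473, 536 and 465 CPM in WT effector libraries. It reached 1165, 1132 and 1098 CPM in KO naive and 1056, 1054 and 1065 CPM in WT naive libraries. Its log2 fold change was -1.23 ± 0.054 in KO cells (edgeR adjusted p = 1.69e-15) and -1.11 ± 0.054 in WT cells (adjusted p = 1.45e-14).

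Rpl5, which with Rpl11 and the 5S rRNA forms the particle that binds MDM2 when ribosome assembly is disturbed, had 733, 691 and 783 CPM in KO effector and 719, 764 and 707 CPM in WT effector libraries. Naive levels were 1599, 1613 and 1545 CPM in KO naive and 1483, 1510 and 1555 CPM in WT naive libraries. Its log2 fold change was -1.11 ± 0.048 in KO and -1.05 ± 0.048 in WT cells. Its partner Rpl11 fell less, by -0.77 ± 0.052 in KO and -0.59 ± 0.052 in WT cells on the log2 scale. Rpl31, of the rim of the exit tunnel, changed by -1.15 ± 0.052 in KO and -1.06 ± 0.052 in WT cells on that scale, Rpl35, also at the tunnel exit, by -1.12 ± 0.054 and -1.01 ± 0.054, and Rps7 by -1.21 ± 0.049 and -0.998 ± 0.049. Rps29 changed by -0.92 ± 0.071 in KO and -0.99 ± 0.072 in WT cells.

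Rps6, the small subunit protein that is phosphorylated by S6 kinase downstream of mTOR, had 987, 979 and 1081 CPM in KO effector and 981, 1044 and 967 CPM in WT effector libraries. In the naive cells it was at 1987, 1924 and 1874 CPM in KO naive and 1729, 1733 and 1817 CPM in WT naive libraries. Rps18, Rps6 and Rpl35 followed the median of the other members most closely over the 12 libraries, with Pearson correlations of 1.000, 0.999 and 0.998. Since the cell states differ so much, these correlations mostly describe that difference, and after each group's mean was removed they were 0.80, 0.87 and 0.89. They are descriptions over libraries that share depth and preparation.

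The size of the fall differed between members by more than their standard errors, which had a median near 0.05. On the log2 scale 14 genes in KO and 5 in WT cells fell by 1 or more, 57 and 62 genes by 0.5 to 1, and 3 and 7 genes by less than 0.5. The smallest falls in WT cells, picked out after their values were seen, were those of Rpl24, at -0.45 ± 0.059 in KO and -0.35 ± 0.060 in WT cells, and of Rpl29, a non-essential protein of the large subunit in mice, at -0.48 in KO and -0.38 in WT cells. The order of the members was much the same in both genotypes, whose effector and naive libraries are all separate: across 74 genes, without Rps27l and Rpl39l, the Pearson correlation of the fold changes in KO and WT cells was 0.89 and Spearman's rho 0.88, as a description over genes that are not independent replicates. All 3 P stalk genes fell: Rplp0 by -1.02 ± 0.050 in KO and -0.98 ± 0.050 in WT cells, Rplp1 by -0.80 and -0.93, and Rplp2 by -0.95 and -0.74 on the log2 scale.

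**Figure D3:**
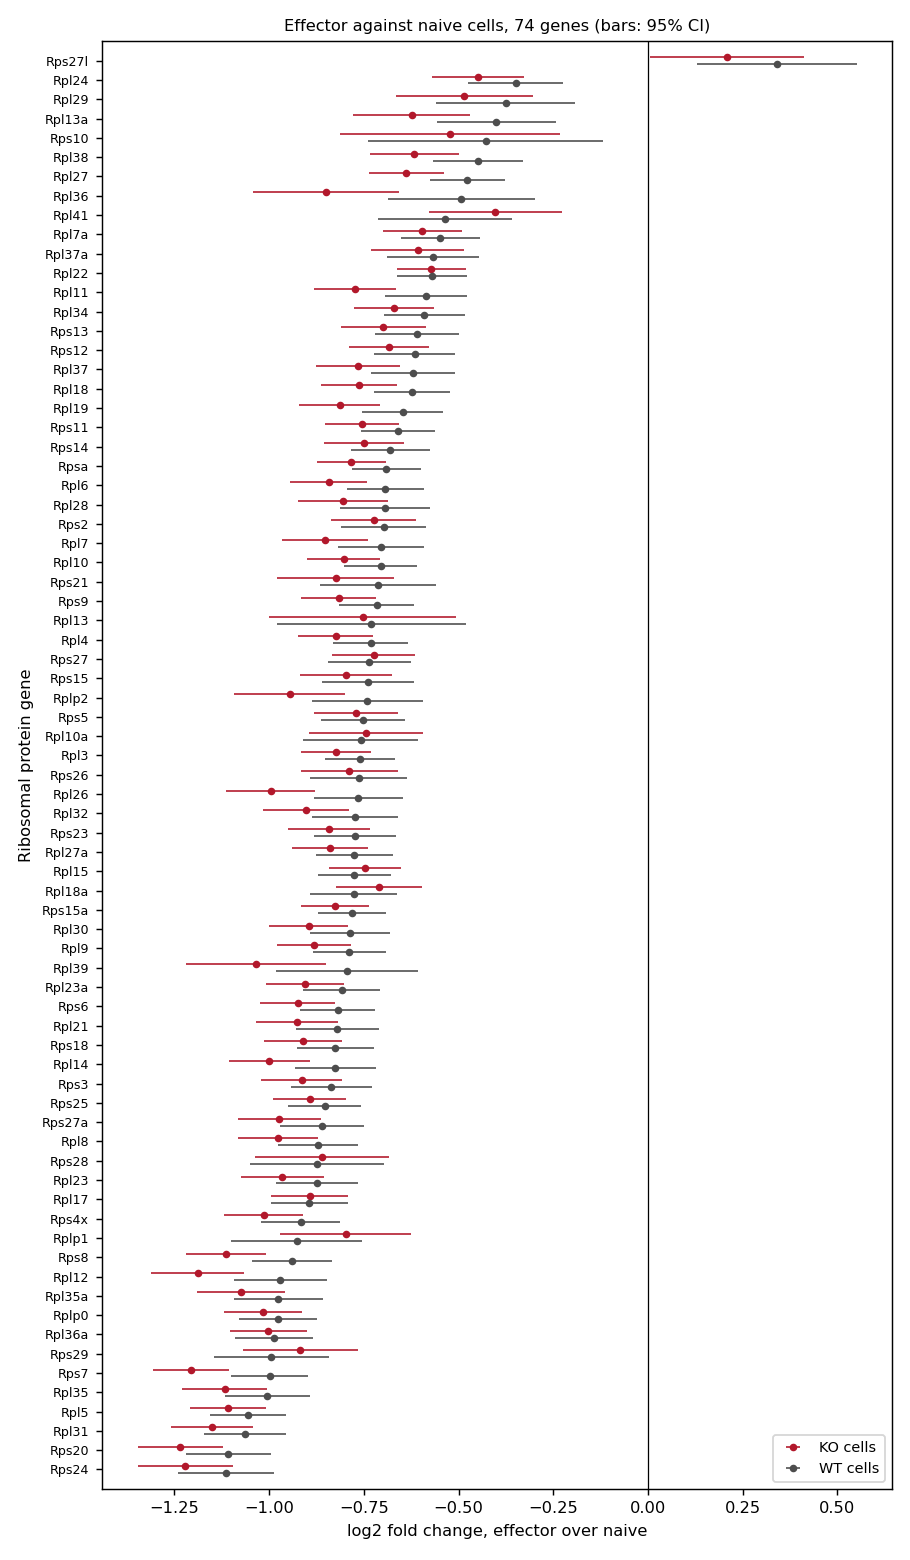
log2 fold change of effector over naive cells (horizontal axis) for 74 ribosomal protein genes (vertical axis, ordered by the WT value), in KO cells (red) and WT cells (grey), with 95% confidence intervals from the edgeR fit. All intervals lie below 0 except those of Rps27l, at 0.21 in KO and 0.34 in WT cells.

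Rps27l stood apart in direction. It had 13.4, 14.5 and 13.1 CPM in KO effector and 13.1, 16.8 and 14.2 CPM in WT effector libraries. It reached 11.9, 12.3 and 11.5 CPM in KO naive and 12.3, 11.5 and 10.7 CPM in WT naive libraries. Every effector library was above every naive library of its genotype, by small margins. The log2 fold change was 0.21 ± 0.098 in KO cells, which did not pass the threshold (edgeR adjusted p = 0.0725), and 0.34 ± 0.10 in WT cells, a rise (adjusted p = 0.00637). Without library 5, the WT effector library with 16.8 CPM, the WT value was 0.24 and no longer passed (adjusted p = 0.0582). Without libraries 5 and 12 the KO value was 0.23 and passed (edgeR adjusted p = 0.0482), and with the gene length trend taken out both passed, at 0.44 in KO (adjusted p = 0.000222) and 0.52 in WT cells. Its relative Rps27 fell in both genotypes, by -0.72 in KO and -0.74 in WT cells on the log2 scale.

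Ribosomal protein genes that the name rule left out were also lower in effector cells, with 6 of the 8 tested fallen in KO cells and 6 of 8 in WT cells. Rps19, the gene most often mutated in Diamond-Blackfan anaemia, had 359, 355 and 400 CPM in KO effector and 369, 407 and 367 CPM in WT effector libraries. Naive levels were 914, 901 and 860.5 CPM in KO naive and 813, 812 and 833 CPM in WT naive libraries. Its log2 fold change was -1.26 ± 0.051 in KO and -1.11 ± 0.051 in WT cells. Rps16 changed by -0.79 in KO and -0.89 in WT cells, Rps3a1 by -0.91 and -0.85, Rack1, a signalling scaffold bound to the small subunit, by -0.78 and -0.75, and Fau, which encodes a fusion of a ubiquitin-like protein with eS30, by -0.47 and -0.47. Rpl22l1, the relative of Rpl22, changed by -0.88 in both, and Rpl22, whose loss in mice blocks development of alpha-beta T cells, by -0.57 in both. Rpl7l1, at -0.09 in KO and 0.05 in WT cells, and Rpl36al, at -0.20 and -0.18, did not pass the threshold.

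Other lists of the translation machinery had smaller median changes, and their counts stand beside 26.8% of all tested genes fallen and 31.6% risen in KO cells, and 25.9% fallen and 30.2% risen in WT cells. The 16 elongation factors and other genes with known TOP mRNAs all fell in each genotype, with a median of -0.50 in KO and -0.44 in WT cells. Tpt1, which encodes the translationally controlled tumour protein, had 1680, 1805 and 1861 CPM in KO effector and 1717, 1752 and 1655 CPM in WT effector libraries. In the naive cells it was at 3558, 3493 and 3495 CPM in KO naive and 3398, 3346 and 3403 CPM in WT naive libraries, with a log2 fold change of -0.98 ± 0.045 in KO and -0.99 ± 0.045 in WT cells. Eef1a1, which delivers aminoacyl-tRNA to the ribosome, changed by -0.65 in KO and -0.72 in WT cells, its exchange factor subunits Eef1b2 by -1.03 and -0.92 and Eef1g by -0.83 and -0.67.

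Of 29 ribosome assembly genes, 26 fell and none rose in KO cells, and 21 fell and 1 rose in WT cells, with medians of -0.39 and -0.27. Fbl, the methyltransferase of box C/D snoRNPs, changed by -0.48 ± 0.053 in KO and -0.56 ± 0.055 in WT cells, Nop56, of the same particles, by -0.50 and -0.44, and Wdr12, which acts in large subunit maturation, by -0.79 and -0.63. Of 11 RNA polymerase I genes, 6 fell and 1 rose in KO cells and 7 fell and 1 rose in WT cells; Polr1a, its largest subunit, changed by -0.60 ± 0.048 in KO and -0.63 ± 0.048 in WT cells and Taf1d by -0.78 and -0.72. Of 31 initiation factors, 23 fell and 2 rose in KO cells and 14 fell and 2 rose in WT cells, with medians of -0.20 and -0.15, and Eif4a2, a helicase relative of Eif4a1, changed by -0.50 in KO and -0.51 in WT cells.

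Of 21 tested regulators of growth and of TOP mRNAs, 6 fell and 5 rose in KO cells, and 7 fell and 5 rose in WT cells, so that 28.6% fell in KO and 33.3% in WT cells, beside the 26.8% and 25.9% of all tested genes. Myc, which drives transcription of ribosomal protein genes and rRNA in many cell types, had 52.8, 55.2 and 56.7 CPM in KO effector and 61.5, 78.6 and 59.7 CPM in WT effector libraries. It reached 93.3, 88.6 and 90.5 CPM in KO naive and 94.2, 103 and 93.0 CPM in WT naive libraries. Its log2 fold change was -0.73 ± 0.078 in KO and -0.55 ± 0.078 in WT cells. Mxd4, a repressor that competes with MYC for its partner MAX, rose by 1.19 ± 0.057 in KO and 1.08 ± 0.058 in WT cells on the log2 scale, and Sesn2, an inhibitor of mTORC1, by 1.03 ± 0.12 and 0.90 ± 0.13. Mtor itself was at -0.11 ± 0.046 in KO and -0.03 ± 0.047 in WT cells and did not pass in either. Of 77 tested genes for proteins of the mitochondrial ribosome, which is built separately, 20 fell and 4 rose in KO cells and 9 fell and 6 rose in WT cells, with medians of -0.09 and -0.01. The fallen share of 26% in KO cells was near that of all tested genes and the share of 11.7% in WT cells below it. Mrpl30 changed by -0.73 in KO and -0.65 in WT cells and Mrps6 by 0.81 and 0.90.

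**Figure D4:**
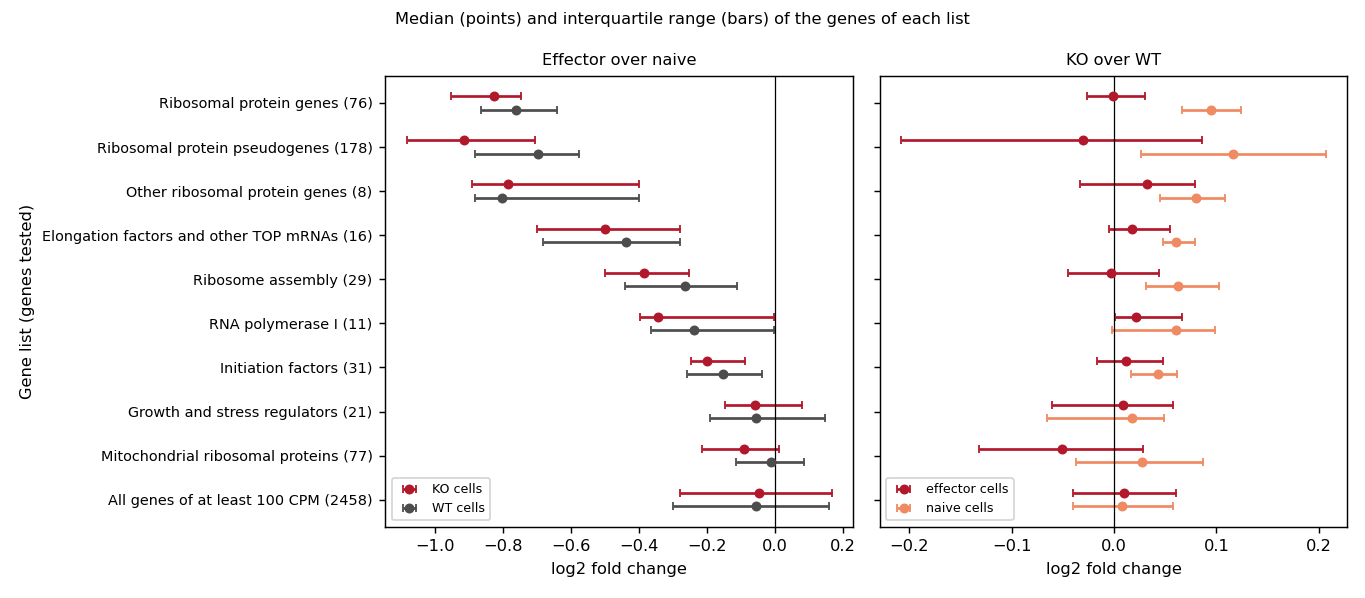
Median (points) and interquartile range (bars) of log2 fold changes over the tested genes of each list (number in brackets), for effector over naive cells in KO and WT cells (left) and for KO over WT in effector and naive cells (right). Ribosomal protein genes have medians of -0.83 in KO and -0.76 in WT cells on the left, and on the right the points lie within 0.12 of 0.

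Several measures moved with cell state beside these values, and their part in the falls was not tested. Pseudogenes named after ribosomal protein genes held 0.92% ± 0.050 of counts in KO effector and 0.91% ± 0.059 in WT effector libraries, against 1.58% ± 0.035 in KO naive and 1.49% ± 0.051 in WT naive libraries (SD, n = 3 each). Of 178 tested pseudogenes, 159 fell and 2 rose in KO cells, and 148 fell and 1 rose in WT cells. Thus 89.3% fell in KO and 83.1% in WT cells, beside 26.8% and 25.9% of all tested genes. Their median log2 fold changes were -0.91 in KO and -0.70 in WT cells. The 17 members with no named pseudogene had a median of -0.72 in WT cells and the 59 others -0.77. Short genes were lower in effector cells: the non-member genes of at most 547 bases had a median of -0.22 in KO and -0.20 in WT cells, against 0.03 and 0.02 for the rest, and with this length trend taken out the members' median was -0.77 in KO and -0.71 in WT cells. The 4 NK cell markers Ncr1, Klrb1c, Klrk1 and Eomes, all found, summed to 113 to 148 CPM in KO effector and 170 to 178 CPM in WT effector libraries, against 6.58 to 8.31 CPM in KO naive and 5.87 to 7.24 CPM in WT naive libraries, with Ncr1 under 1 CPM in each library. The 5 B cell markers summed to 13.1 to 17.6 CPM in KO effector and 10.4 to 16.1 CPM in WT effector libraries, against 3.89 to 5.33 CPM in KO naive and 1.89 to 3.202 CPM in WT naive libraries, and none of them was at 0 throughout a group. Other measures were lower in effector cells: the CD8 T cell markers Cd8a and Cd8b1 summed to 7.38 to 8.27 CPM in KO effector and 5.74 to 6.88 CPM in WT effector libraries, against 19.3 to 21.1 CPM in KO naive and 18.9 to 20.3 CPM in WT naive libraries. Nearly all of this sum was Cd8b1, with Cd8a under 1 CPM in each library. The 4 stromal markers summed to 161 to 168 CPM in KO effector and 172.5 to 182.4 CPM in WT effector libraries, against 324 to 350.0 CPM in KO naive and 359 to 368 CPM in WT naive libraries, nearly all of it Pecam1, with Pdgfra at 0 in every library and Col1a2 at 0 in every naive library. Mitochondrially encoded genes took 1.21% ± 0.14 of counts in KO effector and 1.10% ± 0.081 in WT effector libraries, against 1.38% ± 0.052 in KO naive and 1.52% ± 0.12 in WT naive libraries (SD, n = 3 each). The myeloid markers summed to 16.1 to 26.3 CPM in KO effector and 3.16 to 20.6 CPM in WT effector libraries, against 11.6 to 19.2 CPM in KO naive and 4.49 to 11.3 CPM in WT naive libraries.

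The start of the mRNA was examined because TOP mRNAs are defined there. RefSeq promoter windows (GRCm38.p6) were matched by symbol for 58 of the 78 members, and the coding strand alone was searched for a C followed by at least 4 bases that are C or T, beginning within 5 bases of an annotated start. Such a run was present for 28 of 58 members (48.3%, exact 95% CI 35.0 to 61.8%), against 21.1% of 26967 other genes and 18.3% of all 32851 windows. With a run of at least 6 such bases after the C the shares were 37.9% of members and 7.58% of other genes. Annotated starts can lie some bases from the start used in T cells, and with a C within 20 bases the shares were 82.8% of members and 53.3% of other genes. The run was found among genes of large and small falls, and in Rps27l. The 28 tested members with a run had a median log2 fold change of -0.75 in WT cells, from -1.11 to 0.34, and the 28 tested members without it -0.73, from -1.05 to 0.15.

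The windows below run from 45 bases before to 14 bases after the annotated start base, 5' to 3' on the coding strand, for the members that followed the list most closely (Rps18, Rps6 and Rpl35), for other members with large falls (Rps24, Rpl31, Rpl5 and Rps7) and for Rps27l. Capitals mark the C and the pyrimidines after it, for a run that begins within 5 bases of the annotated start. A window with no capitals holds no run that begins there. Runs that begin farther from the start are left in lower case.
Rps18 (chr17:33955651-33955710, minus strand): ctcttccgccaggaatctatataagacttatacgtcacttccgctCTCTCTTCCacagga
Rps6 (chr4:86857353-86857412, minus strand): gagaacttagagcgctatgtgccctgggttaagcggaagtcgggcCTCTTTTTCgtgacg
Rpl35 (chr2:39005117-39005176, minus strand): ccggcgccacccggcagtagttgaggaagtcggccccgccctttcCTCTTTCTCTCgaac
Rps24 (chr14:24490633-24490692, plus strand): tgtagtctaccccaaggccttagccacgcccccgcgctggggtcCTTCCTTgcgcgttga
Rpl31 (chr1:39367806-39367865, plus strand): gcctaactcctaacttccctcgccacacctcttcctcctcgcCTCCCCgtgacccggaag
Rpl5 (chr5:107900483-107900542, plus strand): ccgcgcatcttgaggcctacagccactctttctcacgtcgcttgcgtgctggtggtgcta
Rps7 (chr12:28635939-28635998, minus strand): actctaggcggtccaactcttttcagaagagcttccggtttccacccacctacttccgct
Rps27l (chr9:66946041-66946100, plus strand): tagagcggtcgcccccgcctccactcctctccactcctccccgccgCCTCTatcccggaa

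In Rps18, Rps6 and Rpl35 the C is the annotated start base itself. Rps24 and Rps27l have further annotated starts, of which the one with the run is shown. Rpl5 and Rps7, with no run that begins within 5 bases of the annotated start, fell as much as genes with one.

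Loss of Rinl was set against these levels in each cell state. In effector cells none of the 76 tested genes passed the threshold between KO and WT (edgeR), where 3.16% of all tested genes did, and 1 member had an unadjusted p under 0.05, where 16.1% of all tested genes did. The median log2 fold change was -0.001, with 38 genes above and 38 below 0. The gene with the unadjusted p under 0.05 was Rpl15, named after its value was seen, with 286, 297 and 306 CPM in KO effector against 271, 283 and 272 CPM in WT effector libraries, a log2 fold change of 0.10 ± 0.047 (edgeR adjusted p = 0.263). DESeq2 and limma-voom also passed none, and edgeR with no filter on low counts passed 1, where it passed 3.39% of all genes. The 95% confidence intervals of the 75 genes other than Rpl39l ran from -0.36 to 0.40, and reached a median of 0.11 to either side of the estimate. Changes within about that size could thus not be told from 0 for most genes. The intervals are not adjusted over all genes, so somewhat larger changes could also miss the threshold. The effector median depended on which libraries were in: it was -0.04 without library 12 and 0.05 without library 5.

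In naive cells none of the 76 genes passed the threshold between KO and WT either, where 1.18% of all tested genes did. The values were nevertheless uneven in sign: 71 of 76 were above 0, with a median of 0.09, a fold of 1.07, beside a median of 0.008 for the genes of at least 100 CPM. An unadjusted p under 0.05 was found for 25 members (32.9%), where 11.9% of all tested genes and 16.4% of those of at least 100 CPM had one. For 42 of the 76 genes all KO naive libraries were above all WT naive libraries. The same was so for 10.7% of all tested genes and for 430 of the 2458 genes of at least 100 CPM. DESeq2 passed 1 gene, Rpsa, where it passed 1.76% of all genes with an adjusted p, and limma-voom none. edgeR fitted to only the naive libraries passed 12 members, where it passed 3.62% of all genes, and edgeR with no filter on low counts passed 8, where it passed 1.77% of all genes, all these members higher in KO. The members share libraries and vary together from library to library, so these counts are not independent observations.

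The following genes, among those with the highest KO values in naive cells, were named after their values were seen. Rpl26, a large subunit protein near the tunnel exit (ENSMUSG00000060938, chromosome 11, 68901583 to 68906989), had 673, 649 and 621 CPM in KO naive against 571, 563 and 575 CPM in WT naive libraries, with no overlap, a log2 difference of 0.18 ± 0.055 (edgeR adjusted p = 0.121). Rpl36 had 296, 275 and 280 CPM in KO naive against 253, 250 and 243 CPM in WT naive libraries, 0.19 ± 0.087 on the log2 scale (adjusted p = 0.422). Rpl11 had 891, 844 and 815 CPM in KO naive against 771, 749 and 752 CPM in WT naive libraries, 0.17 ± 0.052 on the log2 scale (edgeR adjusted p = 0.138). Rpl12 was at 0.16 ± 0.058, Rps7 at 0.15 ± 0.048 and Rpsa, which is also known as the laminin receptor, at 0.14 ± 0.044, none of them past the threshold. Rpl41, Rplp1, Rps28 and Rps29 had values at or below 0, of -0.06, -0.04, -0.01 and -0.01. Rps24, the gene with the largest fall between cell states in WT cells, was at 0.08 ± 0.059.

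**Figure D5:**
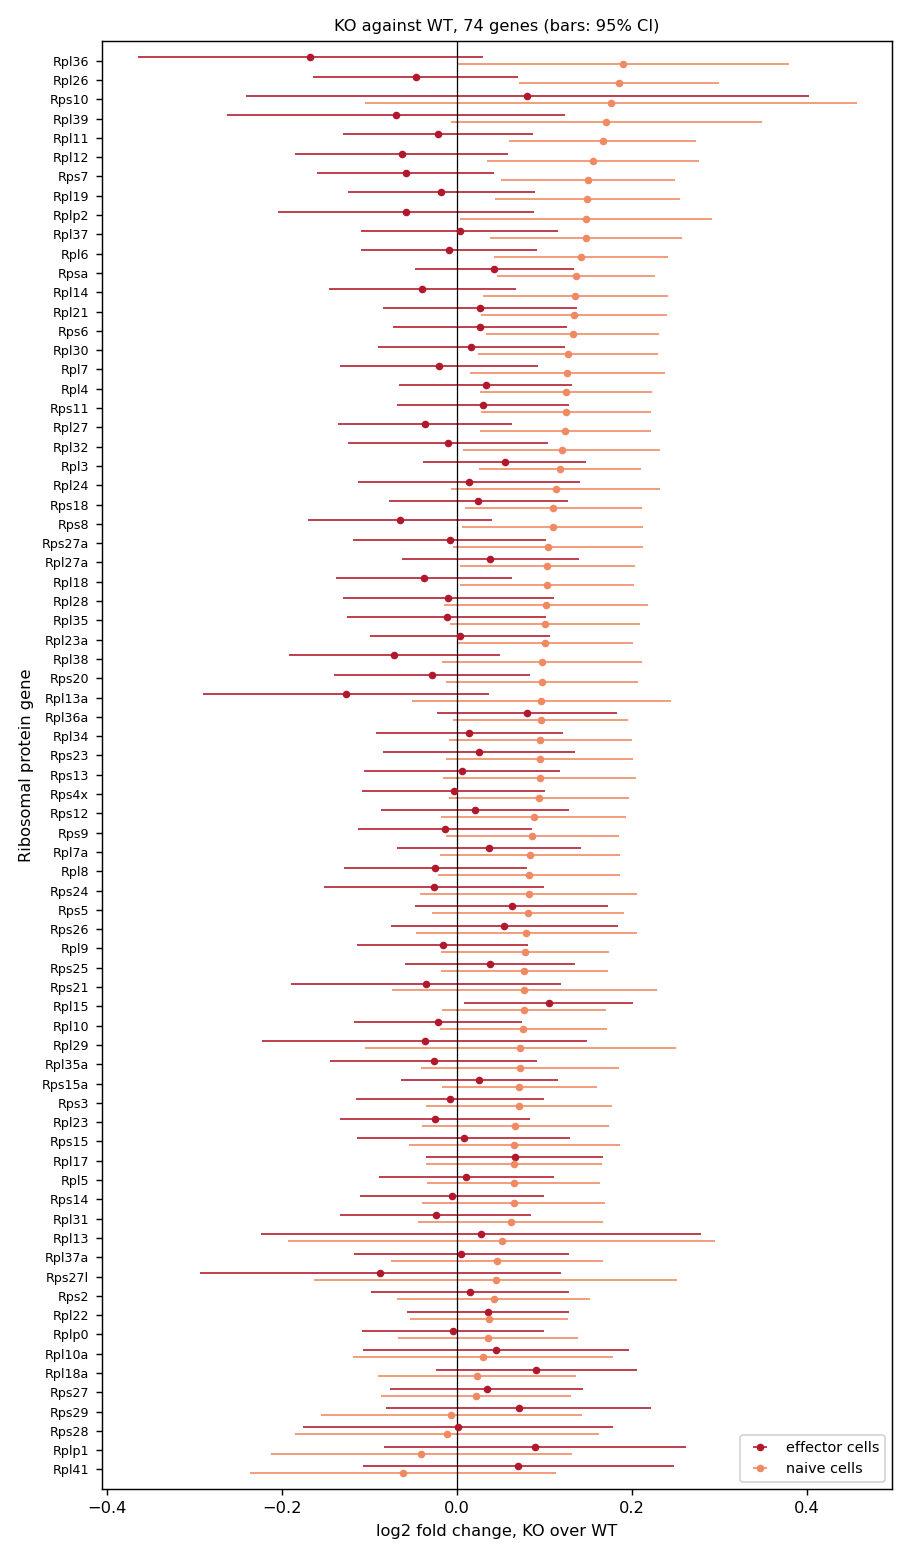
log2 fold change of KO over WT (horizontal axis) for 74 ribosomal protein genes (vertical axis, ordered by the naive value) in effector cells (red) and naive cells (orange), with 95% confidence intervals from the edgeR fit. Naive values lie mostly above 0, with 24 intervals clear of 0, and effector values lie on both sides of 0, but no gene passed the threshold adjusted over all genes in either state.

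Several measures differed between KO and WT naive libraries beside these values. The KO naive libraries were deeper, with 20072199 to 24320247 counts against 12409965 to 19584111 in WT naive libraries, and detected 20823 to 21370 genes against 19634 to 20659. The 5 B cell markers summed to 3.89 to 5.33 CPM in KO naive against 1.89 to 3.202 CPM in WT naive libraries, and the 5 myeloid markers to 11.6 to 19.2 CPM against 4.49 to 11.3 CPM. Of the myeloid markers, Lyz2 had 7.02, 11.1 and 7.82 CPM in KO naive against 0.31, 0.94 and 5.32 CPM in WT naive libraries. Itgam, Csf1r, Fcgr3 and Cd14 overlapped between KO and WT naive libraries. Mitochondrially encoded genes took 1.33 to 1.43% of counts in KO naive and 1.38 to 1.60% in WT naive libraries. The non-member genes of at most 547 bases had a median of 0.05 against 0.00 for the rest, and with the length trend taken out the members' median was 0.08. Their part in the naive values was not tested.

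Whether the KO effect differed between cell states was tested as the difference of both effects, KO over WT in effector cells minus KO over WT in naive cells. None of the 76 genes passed (edgeR), where 0.145% of all tested genes did. An unadjusted p under 0.05 was found for 14 (18.4%), where 9.19% of all tested genes and 11.4% of those of at least 100 CPM had one. DESeq2 and limma-voom passed none, and edgeR with no filter on low counts passed 3, where it passed 0.979% of all genes. The median difference was -0.09 with 66 of 76 values below 0. Without library 5, a WT effector library, the median was -0.04, with 21 values above 0. For each gene the same difference is also the effector over naive value in KO cells minus that in WT cells. Among its most negative values with an unadjusted p under 0.05 were those of Rpl36, at -0.36 (95% CI -0.63 to -0.08), Rpl26, at -0.23 (-0.40 to -0.07), and Rps7, at -0.21 (-0.35 to -0.07), all chosen after their values were seen. Across 74 genes, without Rps27l and Rpl39l, the KO values in effector and in naive cells had a Pearson correlation of -0.46, as a description over genes.

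Lists of related genes gave few calls between KO and WT. Of the 178 tested pseudogenes named after ribosomal protein genes, Rpl19-ps1 and Rpsa-ps9 passed in naive cells, at 0.20 ± 0.045 (edgeR adjusted p = 0.0260) and 0.23 ± 0.057 (adjusted p = 0.0414), and Rps6-ps2 in effector cells, at 1.19 ± 0.32 (adjusted p = 0.0463), all higher in KO and named after their values were seen. These calls were 1.12% of the pseudogenes in naive and 0.562% in effector cells, no more than the 1.18% and 3.16% of all tested genes. The pseudogenes had a median of 0.12 in naive cells, with 149 of 178 above 0, and of -0.03 in effector cells, with 82 above 0. None of the tested elongation, initiation, assembly, RNA polymerase I or regulator genes, and none of the 8 tested ribosomal protein genes outside the rule, passed in either cell state. Among the mitochondrial ribosomal proteins 1 of 77 (1.3%, below the 3.16% of all tested genes) passed in effector cells, Mrps5, with 45.9, 44.2 and 47.2 CPM in KO effector against 49.6, 58.1 and 59.9 CPM in WT effector libraries, a log2 fold change of -0.29 ± 0.065 (edgeR adjusted p = 0.0136). The medians in naive cells were 0.06 for elongation factors and other TOP mRNAs, with 15 of 16 values above 0, and 0.06 for ribosome assembly genes, with 28 of 29 above 0.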

How the data were processed

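Per the labels' protocols, RNA from sorted CD4+ T cells was made into libraries with a stranded kit for poly(A) mRNA. Raw counts, whole numbers for each gene in 12 libraries, come as deposited by the authors. A second deposited table gives FPKM for the same libraries, per its file header. On the 11921 genes checked, FPKM equalled the counts divided by a gene length and a library size factor. The submitters' processing notes name STAR, Picard, DESeq2 1.30.0, mm10 and GRCm38. Which program counted reads, with which strand setting and rule for shared reads, was not given in the sources used here. Column names show cell state and genotype but not which sample of a group, so libraries carry the columns' numbers, 1 to 12.

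Counts of all genes were analysed with edgeR 4.0.16 in R 4.3.3: filterByExpr by group kept 15905 genes, TMM factors were 0.968 to 1.04, and all 12 libraries entered 1 robust quasi-likelihood fit with the 4 groups as terms (biological coefficient of variation 5.21%), with p-values adjusted over all 15905 genes by Benjamini-Hochberg at 0.05. The procedure was also run on simulated data in which each gene was drawn on its own. That run does not bear on shifts shared by many genes. Members and lists were chosen with earlier results of these data known, so lists get counts and medians, with no test of their own, and exact intervals cover counting error only.

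Named genes were Rinl, members that passed between KO and WT, the 8 largest called rises and falls in WT cells, the 5 highest and 5 lowest detected FPKM, relatives of other members, ribosomal protein genes outside the rule, up to 4 called genes of each other list by p, and the 3 members most like the list. Others are said to have been chosen after their values were seen, except Rplp0, Rplp2, Rpl22 and Mtor, which also stand outside this rule. Some genes that this rule names are not reported here, by name or in the plots of single genes, though counts and medians over lists include them. Alternatives were DESeq2 size factors, scaling without the members, DESeq2 1.42.0, limma-voom (limma 3.58.1), no filter or a mean of at least 5 CPM, only the groups compared, limma on log2(FPKM + 1) or log2(FPKM + 0.1), a gene length trend as offset, each library left out in turn, and, added after seeing the data, both libraries 5 and 12 left out.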

Additional observations from a re-analysis of the deposited data

How the results depend on the processing

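The counts of members called in effector against naive cells (74 in KO and 75 in WT) stayed between 74 and 75 under all 23 alternatives in each genotype, and the medians between -0.87 and -0.77 in KO and -0.81 and -0.71 in WT cells; leaving out 1 library gave 74 to 74 and 74 to 75 calls, with medians of -0.87 to -0.80 in KO and -0.81 to -0.73 in WT cells. Between KO and WT, the count of 0 in naive cells was 1 with DESeq2, 8 with no filter on low counts, 12 with only the groups compared and 3 without libraries 5 and 12 (added after seeing the data), 0 to 1 over the 12 fits that each leave out a library (1 without library 11), and 0 otherwise; the median stayed between 0.08 and 0.13. Among all genes, the naive settings passed 1.76% with DESeq2 (of genes with an adjusted p), 1.77% with no filter and 3.62% with only the groups compared. They passed 1.56% without libraries 5 and 12 and 1.59% without library 11. With no filter on low counts the count was 1 in effector cells, where 3.39% of all genes passed. It was 3 for the difference of KO effects, where 0.979% of all genes passed. The effector median ran from -0.04 to 0.05 and the difference from -0.13 to -0.04. With pseudogenes added, the summed share was 4.94% in KO effector, 4.94% in WT effector, 8.58% in KO naive and 8.11% in WT naive cells; leaving out 1 library gave 3.89 to 4.10% in KO effector, 3.89 to 4.11% in WT effector, 6.92 to 7.09% in KO naive and 6.53 to 6.71% in WT naive cells. The promoter run within 20 bases was found in 82.8% of members. The cause of these shifts was not tested. No paired analysis was possible because the columns carry no replicate numbers of the samples. With 3 libraries a group, the 95% intervals of members between KO and WT reached a median of 0.11 to either side on the log2 scale in each cell state.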
